A study of Mus musculus with 64 samples.

Results

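The vancomycin response of germ-free (GF) colon was examined at zeitgeber time (ZT, hours after lights on) 23, 1 hour before lights on. The comparison set 4 libraries labelled GF Vancomycin ZT23 against 4 labelled GF PBS ZT23, which are 8 of the 64 libraries of the series, and was read across all genes. All mice were wild-type Swiss Webster, an outbred stock, aged 8 to 12 weeks, bred without microbes and kept in 12 h of light and 12 h of dark. Vancomycin mice were given vancomycin intraperitoneally, 2.5 mg in 100 µl PBS per dose, with 2 doses daily on 3 days and a last dose on day 4, while PBS mice were given 100 µl of PBS alone on that schedule. Both groups left their isolators for ISOcages while injections went on, so cage and handling were shared. Per its title, the study asks which antibiotic effects on gut immunity do not need the microbiota, and mice without microbes address that question. The labels give whole colon as tissue and do not say that each library is a separate animal, so the p-values rest on library-to-library spread, which may be technical.

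Vancomycin is a glycopeptide antibiotic that stops Gram-positive bacteria from building their cell wall, and in a host without bacteria that target is missing. The colon of such mice still holds lymphoid tissue: isolated follicles and colonic patches made largely of B cells, with T cells and dendritic cells around them. Follicles are scattered along the colon and are rich in transcripts of MHC class II, the molecules that present peptides from engulfed protein to CD4 T cells. Because RNA came from bulk tissue, fewer cells of a type and less RNA per cell cannot be told apart in any value below.

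Libraries of the groups were alike in depth but not in Hox or Y-linked expression. Deposited estimated counts totalled 12821429 to 13174927 in the vancomycin libraries and 11465382 to 13098226 in the PBS libraries. Hox genes, transcription factors whose posterior members mark the distal colon and whose anterior members mark the proximal colon, served as a check of position. The Hox position score, the mean log2 CPM (counts scaled to library size) of Hox groups 10 to 13 minus that of groups 3 to 6, was -0.28, -1.85, 3.11 and 0.43 in vancomycin libraries 1 to 4, against 2.02, 2.77, 2.90 and 2.66 in PBS libraries 1 to 4. Only vancomycin library 3 lay at the level of the PBS libraries, and the other 24 GF libraries ran from -2.91 to 4.01. Hoxb13, the most posterior gene of its cluster, had 2.72, 0.439, 463 and 65.3 CPM in the vancomycin libraries, against 187, 312, 291 and 315 CPM in the PBS libraries. The vancomycin libraries thus spanned near absence to the highest level of all 8, while the PBS libraries sat in a narrow band.

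Several anterior Hox genes gave the opposite picture in vancomycin libraries 1 and 2, and no Hox list lay wholly on one side. Of groups 3 to 6, 9 of 11 tested genes had positive log2 fold changes (vancomycin minus PBS), with Hoxa5 at -0.029 and Hoxa6 at -0.65. The median of the 11 was 1.58, and 5 had an unadjusted edgeR p under 0.05. Of groups 7 to 9, 6 of 7 were positive with a median of 1.90, and 4 had an unadjusted edgeR p under 0.05. Of groups 10 to 13, 5 of 8 were negative with a median of -0.26, while Hoxd10, Hoxd11 and Hoxa10 lay at 1.41, 1.09 and 0.16. Hoxb6 had 24.9, 74.5, 1.38 and 1.55 CPM in the vancomycin libraries, against 1.03, 0.889, 1.54 and 1.42 CPM in the PBS libraries, and Hoxb7 had 6.92, 19.2, 1.15 and 1.40 CPM in the vancomycin libraries, against 0.316, 0.371, 0.406 and 0.824 CPM in the PBS libraries. Of 26 Hox genes in 3 lists, 2, Hoxb7 and Hoxd9, had all 4 vancomycin libraries above all 4 PBS libraries. Over all genes, 1.82% lay higher in this way. None of the 26 passed the edgeR test, while DESeq2 called Hoxb6 and Hoxb7. The mean log2 CPM of 4 Y-linked genes was 0.082, 1.10, -0.63 and 6.04 in the vancomycin libraries, against 5.8, 5.87, 5.89 and 1.24 in the PBS libraries. Of these genes, Ddx3y, an RNA helicase, had 0.0823, 0.220, 0 and 73.98 CPM in the vancomycin libraries, against 71.9, 73.8, 75.6 and 0.674 CPM in the PBS libraries, and Eif2s3y and Kdm5d were high and low in the same libraries. Uty, of the histone demethylase family, went against this split, with 35.2, 38.6, 14.04 and 61.6 CPM in the vancomycin libraries, against 35.03, 30.6, 30.8 and 62.3 CPM in the PBS libraries. Thus 3 of the 4 genes were high in 1 of 4 vancomycin and 3 of 4 PBS libraries, while Uty was detected in all 8. The labels give no sex, and treatment, colon position and sex cannot be fully told apart with these 8 libraries.

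**Figure D1:**
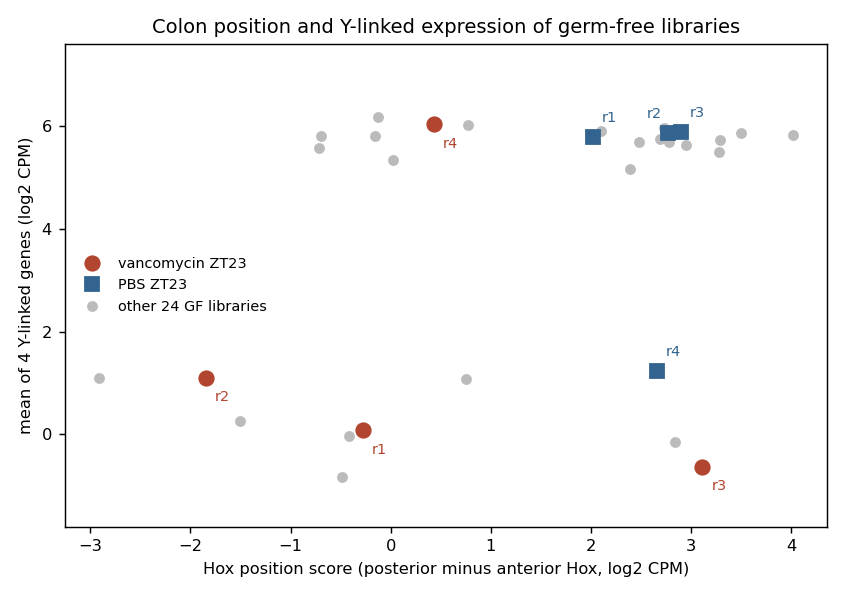
Hox position score (x axis, log2 CPM, higher is more distal) against the mean log2 CPM of 4 Y-linked genes (y axis) for each GF library. The 4 PBS libraries at ZT23 (squares) lie between 2.02 and 2.90 on the x axis, while the 4 vancomycin libraries (circles) spread from -1.85 to 3.11, and 1 of 4 vancomycin and 3 of 4 PBS libraries lie in the upper band.

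No gene passed the test of vancomycin against PBS. Of 16951 genes tested with edgeR (adjusted p threshold 0.05, 1 fit of all 32 GF libraries), 0 were called, or 0% of genes, while 2050 had an unadjusted p under 0.05, of which 875 lay higher and 1175 lower after vancomycin. The median log2 fold change over all genes was -0.0036. DESeq2 called 55 genes, 41 lower (0.242% of those it tested) and 14 higher (0.0826%). As a count that needs no model, 813 genes (4.8%) had all 4 vancomycin libraries below all 4 PBS libraries and 308 genes (1.82%) had them above. These last percentages are the background for each count of non-overlapping members given below. Gene lists were chosen with earlier results of these data known, so setting a count beside these shares is no test of a list. Since no gene passed, the gene values that follow are measurements with their standard errors (SE), not called changes.

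The smallest p of all genes belonged to Trim30b, a relative of the TRIM30 proteins of innate immune signalling. It had 0.165, 0.146, 0.460 and 0.0776 CPM in the vancomycin libraries, against 2.21, 6.74, 11.04 and 1.95 CPM in the PBS libraries, a log2 fold change of -4.63 ± 0.80 (SE; edgeR adjusted p = 0.0676). No vancomycin library reached the lowest PBS library, although the vancomycin values rest on few reads and close copies of the gene may share them. Leaving out PBS library 1 or PBS library 4 brought its adjusted p to 0.0387 and 0.0366, the single call in those fits. Most related Trim genes had negative log2 fold changes, each with overlap between groups. Among them, Trim5 gave -2.12 ± 0.76, Trim30d -1.98 ± 0.82 and Trim34a -1.33 ± 0.45 (SE). Only Trim30c and Trim12c lay above 0, at 0.64 ± 1.18 and 1.01 ± 0.58 (SE). Trim30d varied widely within the PBS libraries, at 1.11, 47.4, 40.7 and 16.7 CPM.

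Several of the other 11 lower genes of smallest p are known from lymphocytes and myeloid cells. Pik3cg, the catalytic subunit of PI3 kinase gamma in leukocytes, had 3.29, 3.44, 3.99 and 4.73 CPM in the vancomycin libraries, against 8.38, 27.7, 23.5 and 17.5 CPM in the PBS libraries. The group values did not overlap, and the log2 fold change was -2.31 ± 0.57 (SE; edgeR adjusted p = 0.309). Bach2, a repressor that holds B and T cells in an undifferentiated state, had 3.79, 4.61, 4.76 and 4.19 CPM in the vancomycin libraries, against 18.4, 15.6, 49.2 and 6.14 CPM in the PBS libraries, a log2 fold change of -2.36 ± 0.60 (SE). Tnfaip8l2, which dampens immune cell activation, had 0.741, 0.951, 1.30 and 0.853 CPM in the vancomycin libraries, against 2.29, 4.00, 11.8 and 2.92 CPM in the PBS libraries. PBS library 3 was the highest library for both genes. Pstpip1, an adaptor of the leukocyte cytoskeleton, gave -1.87 ± 0.45, and Ccdc88c, a Dishevelled-binding protein, gave -0.91 ± 0.19, both without overlap between groups. Cep192, a centrosome scaffold, had 9.39, 11.7, 11.7 and 9.93 CPM in the vancomycin libraries, against 21.7, 27.2, 22.6 and 15.1 CPM in the PBS libraries, and its groups did not overlap either. Nfya, a subunit of the CCAAT-binding factor NF-Y, gave a log2 fold change of -0.55 ± 0.13, Rdh12, a retinol dehydrogenase, -2.01 ± 0.46 and Tmem71 -3.24 ± 0.82. Gad1, which makes GABA, and Clec2g, a C-type lectin of the Clec2 family, overlapped between groups: Gad1 ranged from 0 to 0.307 CPM in vancomycin libraries and from 0.300 to 7.71 CPM in PBS libraries.

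The 12 higher genes of smallest p were of mixed function. Sardh, the mitochondrial sarcosine dehydrogenase, had 9.72, 17.2, 11.7 and 13.8 CPM in the vancomycin libraries, against 2.53, 1.11, 1.54 and 3.75 CPM in the PBS libraries, a log2 fold change of 2.55 ± 0.60 (SE; edgeR adjusted p = 0.309). Every vancomycin library lay above every PBS library. Acadm, medium-chain acyl-CoA dehydrogenase, had 208, 194, 129 and 181 CPM in the vancomycin libraries, against 108, 128, 112 and 99.3 CPM in the PBS libraries, and Grhpr, glyoxylate reductase, had 24.04, 24.4, 18.2 and 19.2 CPM in the vancomycin libraries, against 15.9, 14.4, 10.1 and 11.8 CPM in the PBS libraries. These groups did not overlap, with vancomycin library 3 nearest to PBS in both genes. Adhfe1, a mitochondrial alcohol dehydrogenase, gave a log2 fold change of 2.59 ± 0.72, Prxl2a, a peroxiredoxin-like protein, 1.14 ± 0.31, Cfap298 0.43 ± 0.12, Ajap1, a junction-associated protein, 2.32 ± 0.65 and Fzd3, a Wnt receptor, 1.57 ± 0.42, all without overlap. Tcp11 had 4.69, 30.7, 1.84 and 2.64 CPM in the vancomycin libraries, against 1.74, 1.56, 1.54 and 2.02 CPM in the PBS libraries. Vancomycin library 2 was far above the rest and vancomycin library 3 lay within the PBS range, at a log2 fold change of 2.53 ± 0.55 over the group. Nfyc, another NF-Y subunit, had a log2 fold change of 0.51 ± 0.14, and Cnksr3, a scaffold that aldosterone signalling induces in kidney, one of 0.85 ± 0.24, and both overlapped between groups.

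**Figure D2:**
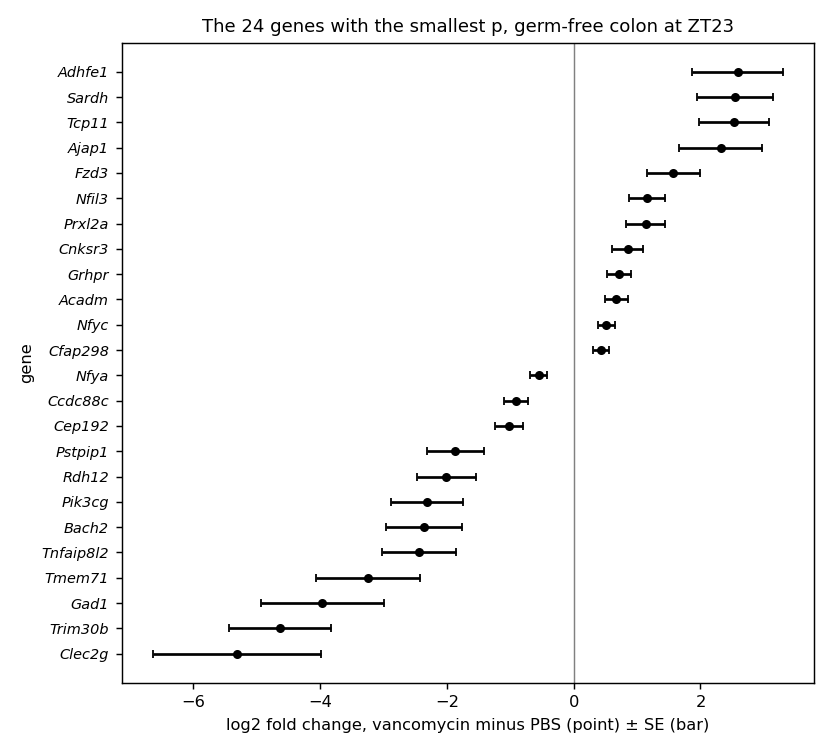
Log2 fold change (x axis, vancomycin minus PBS) of the 12 higher and 12 lower genes with the smallest p, as points with bars of 1 SE. Clec2g, which rests on few reads, lies lowest, followed by Trim30b at -4.63, and none of the 24 genes had an edgeR adjusted p under 0.05.

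Genes of MHC class II lay lower together after vancomycin. All 10 tested members had every vancomycin library below every PBS library, against 4.8% of all genes, with a median log2 fold change of -2.82 against -0.0036 for all genes. All 10 had an unadjusted p under 0.05, none passed over all genes, and DESeq2 called 0. Cd74, the invariant chain that guides class II molecules to their peptides, had 50.4, 119.8, 139.6 and 58.01 CPM in the vancomycin libraries, against 363, 619, 1319 and 423 CPM in the PBS libraries, a log2 fold change of -2.89 ± 1.05 (SE; edgeR adjusted p = 0.313). H2-Aa and H2-Ab1 encode the alpha and beta chains of I-A, the class II molecule of the cell surface. H2-Aa had 24.1, 49.8, 73.5 and 28.1 CPM in the vancomycin libraries, against 151, 266, 511 and 156 CPM in the PBS libraries, and H2-Ab1 had 24.9, 43.2, 56.2 and 24.5 CPM in the vancomycin libraries, against 112, 179, 334 and 136 CPM in the PBS libraries. Vancomycin library 1 or 4 was lowest and PBS library 3 highest for all 3 genes, and the lowest PBS library stayed above the highest vancomycin library in each.

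The regulators and accessory chains followed the same order of groups. Ciita, the master activator of class II transcription, had 0.906, 6.29, 5.52 and 2.48 CPM in the vancomycin libraries, against 13.6, 27.9, 56.8 and 18.8 CPM in the PBS libraries, a log2 fold change of -2.94 ± 1.13 (SE). H2-DMa, H2-DMb1 and H2-DMb2, chains of the peptide exchange factor H2-M, gave log2 fold changes of -1.83 ± 0.64, -2.02 ± 0.94 and -2.81 ± 1.01. H2-Eb1, the beta chain of I-E, gave a log2 fold change of -2.84 ± 1.02. H2-Oa and H2-Ob, chains of the H2-O inhibitor that B cells make, gave log2 fold changes of -3.21 ± 1.29 and -4.27 ± 1.61, and H2-Ob had 0.988, 4.46, 4.83 and 1.16 CPM in the vancomycin libraries, against 14.9, 51.6, 135 and 21.1 CPM in the PBS libraries. H2-DMb1 and H2-DMb2 are near copies, so how reads were divided between them is uncertain.

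Class II promoters carry a conserved set of boxes, of which the Y box is the one NF-Y binds. RefSeq promoter windows of the C57BL/6J reference (GRCm38.p6, 250 bases before to 50 after the start, not read from these mice) were found for 7 of the 10 genes. The motif searched was CTGATTGG on both strands, which overlaps no other motif searched, and 4.1% of 32851 windows hold it. H2-Aa, H2-Eb1 and H2-Oa hold 1 match each, on the strand of the gene. Of the genes with a match, the windows of the 2 that encode surface chains, H2-Aa and H2-Eb1, are shown with the match in capitals.
H2-Aa, chr17:34287774-34288073, minus strand: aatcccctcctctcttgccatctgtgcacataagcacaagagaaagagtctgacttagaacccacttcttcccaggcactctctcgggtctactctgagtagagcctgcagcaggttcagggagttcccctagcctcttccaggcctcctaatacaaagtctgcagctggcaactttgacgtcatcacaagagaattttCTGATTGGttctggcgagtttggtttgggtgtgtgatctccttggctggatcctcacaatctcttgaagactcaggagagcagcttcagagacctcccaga
H2-Eb1, chr17:34305617-34305916, plus strand: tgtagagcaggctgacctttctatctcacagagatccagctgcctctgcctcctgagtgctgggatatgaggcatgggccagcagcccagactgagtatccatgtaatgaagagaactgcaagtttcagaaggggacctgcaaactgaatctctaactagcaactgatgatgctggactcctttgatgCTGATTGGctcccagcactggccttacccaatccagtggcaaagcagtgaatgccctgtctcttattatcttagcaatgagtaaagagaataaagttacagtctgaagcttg
The match begins 51 bases before the start in H2-Aa and 62 bases before it in H2-Eb1. It describes these letters and is no evidence of binding here.

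Genes of B cells and follicles lay lower as well. Of 22 tested members, 20 had all vancomycin libraries below all PBS libraries, and the median log2 fold change was -4.06. All 22 values were negative, 20 had an unadjusted p under 0.05, and DESeq2 called 1, Pax5. Pax5, the factor that commits cells to the B lineage, had 0.576, 1.32, 2.84 and 0.310 CPM in the vancomycin libraries, against 142, 183, 519 and 61.96 CPM in the PBS libraries, a log2 fold change of -7.47 ± 2.37 (SE; edgeR adjusted p = 0.309). Every PBS library was far above every vancomycin library. Ighd, the IgD heavy chain of naive B cells, had 0.412, 6.07, 10.05 and 1.55 CPM in the vancomycin libraries, against 33.8, 103, 319 and 40.7 CPM in the PBS libraries, and Cr2, complement receptor 2 of follicular B cells and follicular dendritic cells, had 0.0823, 5.27, 5.29 and 0.310 CPM in the vancomycin libraries, against 8.38, 105, 256 and 54.7 CPM in the PBS libraries. For Cr2 the closest pair of libraries, vancomycin library 3 and PBS library 1, lay near each other, and PBS library 3 held the highest value of both genes.

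Receptor components followed. Cd79a, a signalling chain of the B cell receptor, had 0.494, 3.29, 10.4 and 3.33 CPM in the vancomycin libraries, against 36.4, 86.8, 198 and 33.7 CPM in the PBS libraries. Vancomycin library 3 was the highest of its group, and it stayed below each PBS library. Ms4a1, the CD20 antigen, gave a log2 fold change of -3.44 ± 1.19, Spib, a B cell transcription factor, -3.00 ± 1.04, and Ltb, a lymphotoxin that organises lymphoid tissue, -3.38 ± 1.20. Cxcl13, the chemokine of follicular stroma that draws B cells, had 2.72, 7.68, 18.9 and 5.66 CPM in the vancomycin libraries, against 48.01, 72.3, 58.6 and 34.4 CPM in the PBS libraries, and its receptor Cxcr5 gave a log2 fold change of -2.99 ± 1.22. Ccl21a, a chemokine of lymphatic vessels and T cell zones, overlapped between groups, at -0.67 ± 0.59. Ccl21a is 1 of several near-identical copies, so its reads are uncertain.

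**Figure D3:**
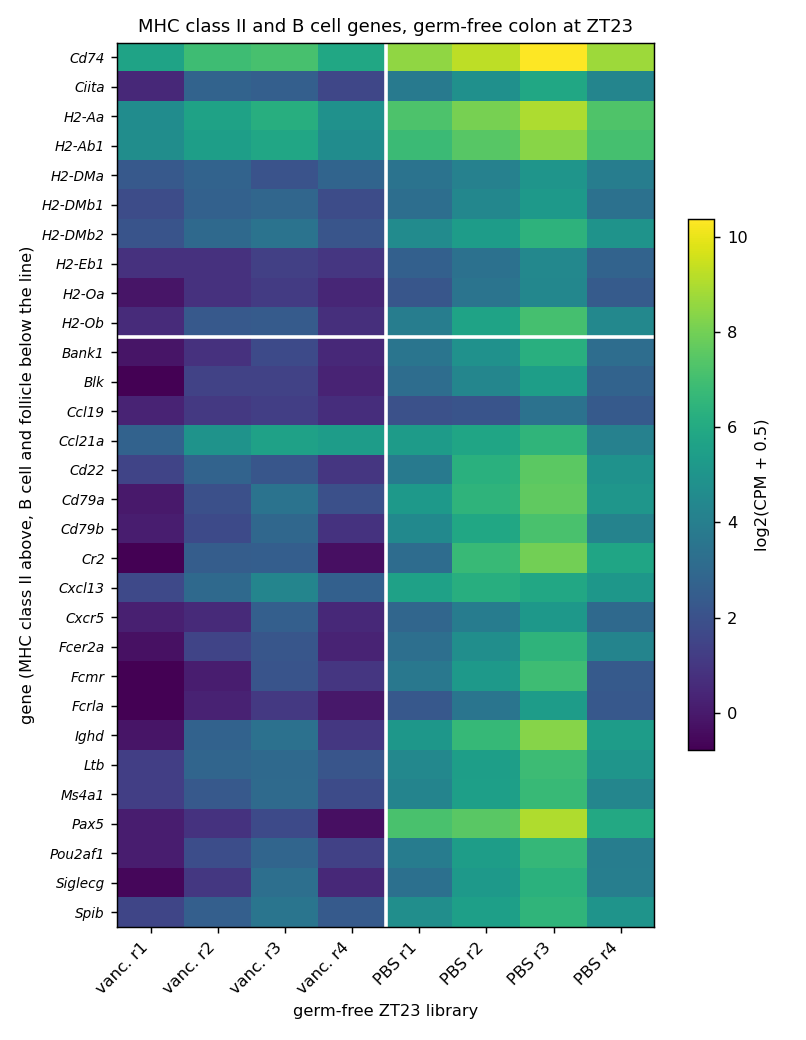
Log2(CPM + 0.5) (colour) of the 10 MHC class II genes above the line and 20 of the 22 B cell and follicle genes below it, in vancomycin libraries 1 to 4 (left) and PBS libraries 1 to 4 (right). PBS library 3 is brightest and vancomycin libraries 1 and 4 are darkest for most rows, and of the genes shown only Ccl21a overlaps between groups.

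T and NK cell genes lay lower with more overlap. All 26 tested members had negative values, 14 had non-overlapping groups, 21 had an unadjusted p under 0.05, and the median was -3.09. DESeq2 called 1, Lck. Lck, the kinase that starts T cell receptor signalling, had 1.48, 2.49, 5.14 and 1.16 CPM in the vancomycin libraries, against 6.88, 19.3, 72.6 and 10.04 CPM in the PBS libraries, a log2 fold change of -3.40 ± 1.03 (SE; edgeR adjusted p = 0.309). Cd3d, a chain of the T cell receptor complex, had 0.329, 5.78, 0.460 and 2.25 CPM in the vancomycin libraries, against 9.33, 15.1, 51.1 and 10.8 CPM in the PBS libraries. Cd4, the co-receptor of helper T cells, had 0.576, 9.73, 9.82 and 4.96 CPM in the vancomycin libraries, against 4.43, 9.78, 193 and 5.77 CPM in the PBS libraries, so that PBS library 3 alone stood high and the other PBS libraries overlapped vancomycin. Without PBS library 1 the count of non-overlapping members was 22 of 26, where 7.56% of all genes lay lower. Without PBS library 3, which was the highest for Lck, Cd3d and Cd4, the median was -1.8 and 25 of 26 members were negative. Cd8a, the co-receptor of cytotoxic T cells, and Foxp3, the factor of regulatory T cells, overlapped between groups, at -2.53 ± 0.97 and -2.23 ± 1.12, and Trdc, the constant chain of gamma delta T cells, had the value nearest to 0, at -0.92 ± 0.63.

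Myeloid and plasma cell genes stood apart in part. Of 24 macrophage and dendritic cell genes, 10 lay lower without overlap and the median was -0.78. Lyz2, lysozyme of macrophages, had 17.7, 69.7, 119 and 60.3 CPM in the vancomycin libraries, against 178, 282, 454 and 248 CPM in the PBS libraries, a log2 fold change of -2.12 ± 0.84 (SE; edgeR adjusted p = 0.331). C1qa, a complement chain made by macrophages, had 10.04, 21.8, 29.1 and 22.96 CPM in the vancomycin libraries, against 36.2, 50.8, 61.3 and 45.4 CPM in the PBS libraries, and Csf1r, the receptor for their growth factor, gave a log2 fold change of -1.09 ± 0.48. Other macrophage genes lay above 0: Mrc1 and Cd163, scavenging receptors, gave 0.40 ± 0.33 and 0.84 ± 0.62, and Mertk, which clears dying cells, gave 0.21 ± 0.20, all with overlap. Of 15 plasma cell genes, 5 lay lower without overlap. Igha, the IgA heavy chain and the main antibody product of gut plasma cells, had 185, 269.7, 365 and 119 CPM in the vancomycin libraries, against 642, 978, 465 and 272 CPM in the PBS libraries, with overlap, and Igkc, the kappa chain, gave a log2 fold change of -1.87 ± 0.93. Ighg2b, an IgG heavy chain, had 0.0823, 0.805, 0.767 and 0.620 CPM in the vancomycin libraries, against 37.1, 37.8, 5.92 and 1.87 CPM in the PBS libraries, and its PBS libraries 1 and 2 stood highest. Xbp1 and Sdc1, which epithelium also makes, gave 0.011 ± 0.15 and 0.31 ± 0.22. Immunoglobulin segments share sequence, and their counts are uncertain.

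The immune values lay beside differences in library makeup, so the list values were set against position, sex and muscle content. Averaged over the B cell and follicle list, log2 CPM was -0.81, 1.36, 2.48 and 0.53 in the vancomycin libraries, against 3.91, 5.18, 6.33 and 3.98 in the PBS libraries. Vancomycin library 3, whose Hox score of 3.11 was at the PBS level, was the highest of its group and lay below every PBS library. With the Hox position score as a covariate the list medians were -2.19 for B cell and follicle, -1.46 for MHC class II and -1.89 for T and NK cell genes. With the smooth muscle score as a covariate they were -1.75, -1.39 and -1.16, and with the Y-linked score -3.16, -2.52 and -3.00. All tested members of the 3 lists stayed negative in these fits, and no gene was called in any of them. With the B cell and follicle score itself as a covariate, the MHC class II and T and NK cell medians were -0.20 and -0.19, with 7 of 10 and 16 of 26 members negative, while the adipose median was 1.65. The B cell and follicle median was 0.13 in that fit. At ZT23 this score did not overlap between the groups, so the fit removes most of any shift that runs with it and cannot decide on a cause. The covariates other than position and sex were added after the data were seen.

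Adipose genes lay higher after vancomycin. All 16 tested members had positive values, 13 had an unadjusted p under 0.05, the median was 2.66, and 7 had all vancomycin libraries above all PBS libraries, against 1.82% of all genes. DESeq2 called 0 of them. Adipoq, the fat cell hormone adiponectin, had 7.16, 73.8, 32.1 and 41.6 CPM in the vancomycin libraries, against 1.34, 0.296, 0.0812 and 3.22 CPM in the PBS libraries, a log2 fold change of 4.95 ± 1.67 (SE; edgeR adjusted p = 0.309). Car3, the carbonic anhydrase of fat and muscle, had 49.4, 572, 231 and 336 CPM in the vancomycin libraries, against 19.1, 6.45, 0.0812 and 47.3 CPM in the PBS libraries, and Fabp4, the fatty acid binding protein of fat cells, had 47.6, 303, 101 and 149.9 CPM in the vancomycin libraries, against 27.1, 13.3, 13.1 and 39.2 CPM in the PBS libraries. Vancomycin library 2 was highest and library 1 lowest in its group for these 3 genes, while PBS library 3 was lowest of all 8. Cidec, which coats lipid droplets, gave a log2 fold change of 2.88 ± 0.94, Lpl, lipoprotein lipase, 1.91 ± 0.69, and Pnpla2, a triglyceride lipase found in most tissues, 0.50 ± 0.16. Pparg, the regulator of fat cell differentiation that colonocytes also express, had 112, 145, 13.4 and 114 CPM in the vancomycin libraries, against 26.9, 16.2, 13.1 and 17.01 CPM in the PBS libraries, where vancomycin library 3 lay at the PBS level. The count of non-overlapping members was 13 without vancomycin library 1 and 12 without PBS library 4, where 4.89% and 4.16% of all genes lay higher. With the Hox position score as a covariate, the adipose median was 1.63.

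Other genes of the outer wall lay the same way with smaller values, and with that covariate their medians were 0.33 for smooth muscle, 0.37 for mesothelium and 0.087 for fibroblast and matrix genes. All 20 smooth muscle genes were positive with a median of 0.75, but only 1, the calcium store protein Casq2, had no overlap. Myh11, the myosin heavy chain of smooth muscle, had 2298, 4327, 2928 and 6428 CPM in the vancomycin libraries, against 3810.0, 1683, 1413 and 2055 CPM in the PBS libraries, a log2 fold change of 0.83 ± 0.55 (SE; edgeR adjusted p = 0.538). PBS library 1 lay above vancomycin libraries 1 and 3, so the groups overlapped. The mean log2 CPM of the smooth muscle list was 8.34, 9.17, 8.84 and 9.63 in the vancomycin libraries, against 8.95, 7.99, 7.74 and 8.18 in the PBS libraries. Mesothelium, which covers the outer face of the gut, had 11 positive genes of 11 with a median of 0.73, 0 without overlap and 0 at an unadjusted p under 0.05 in edgeR. Its median moved with single libraries, to 0.32 without vancomycin library 4, 1.10 without vancomycin library 1, 1.41 without PBS library 1, 0.36 without PBS library 3 and 0.35 without PBS library 4. Of its defining markers, Upk3b had 0.741, 5.93, 9.67 and 13.03 CPM in the vancomycin libraries, against 10.6, 6.08, 0.649 and 0.0749 CPM in the PBS libraries. Fibroblast and matrix genes had a median of 0.42, which was 0.73 without PBS library 1, and genes of neurons, glia and interstitial cells one of 0.57, with 1 non-overlapping member each, while the endothelium list stood at 0.013 with 7 of 14 genes on each side.

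**Figure D4:**
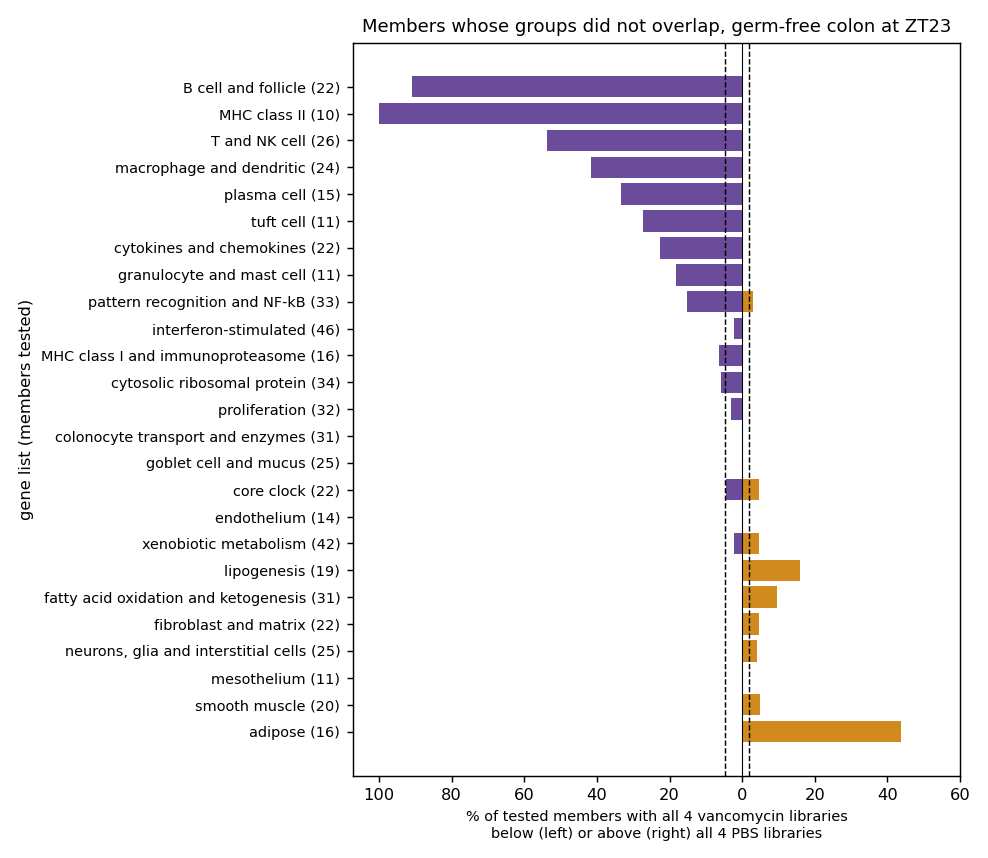
Share of tested members of 25 gene lists with all 4 vancomycin libraries below all 4 PBS libraries (bars to the left) or above them (bars to the right), in percent. Dashed lines mark the shares over all genes, 4.8% on the left and 1.82% on the right. MHC class II reaches 10 of 10, B cell and follicle 20 of 22 on the left, and adipose 7 of 16 on the right.

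Small intestine and Paneth cell genes had 15 of 19 positive values, a median of 0.74 and 0 members without overlap. That median was 0.027 without vancomycin library 1, 0.45 without vancomycin library 2 and 0.39 without PBS library 2, and 0.21 with the Hox position score as a covariate. Xenobiotic genes had 31 of 42 positive values, a median of 0.40 and 11 higher at an unadjusted p under 0.05, and with the Hox position score as a covariate the median was 0.081. Cyp2c65, a cytochrome P450 of gut epithelium, had 206, 233, 3.84 and 59.8 CPM in the vancomycin libraries, against 18.3, 9.78, 2.68 and 10.5 CPM in the PBS libraries, and Slc10a2, the ileal bile acid transporter, had 429, 445, 17.03 and 118 CPM in the vancomycin libraries, against 52.2, 22.2, 24.9 and 28.2 CPM in the PBS libraries. In both genes vancomycin libraries 1 and 2, with the lowest Hox scores, stood highest, library 4 followed and library 3 lay within or below the PBS range. Members without overlap were Cyp2e1, a P450 also abundant in fat and liver, at 3.75 ± 1.41, Cyp3a13 at 0.55 ± 0.27 and, lower, Ahrr, the repressor that the aryl hydrocarbon receptor induces. Ahrr had 0.988, 0.951, 0.384 and 0.620 CPM in the vancomycin libraries, against 3.16, 5.78, 13.7 and 4.50 CPM in the PBS libraries, a log2 fold change of -3.19 ± 0.94 (SE; edgeR adjusted p = 0.309).

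The antimicrobial list had a median of -0.29, with 1 of 32 members, Lyz2, without overlap. Reg3b and Reg3g, lectins that epithelium secretes against bacteria, varied widely between libraries. Reg3b had 54.6, 259.6, 0.997 and 1.16 CPM in the vancomycin libraries, against 0.158, 1.41, 0.0812 and 0 CPM in the PBS libraries, and Reg3g had 19.1, 69.1, 0.537 and 2.79 CPM in the vancomycin libraries, against 1.5, 0.667, 0.649 and 0.899 CPM in the PBS libraries. Vancomycin libraries 1 and 2 alone stood high in both genes, and the groups overlapped, with log2 fold changes of 7.52 ± 2.43 and 4.61 ± 1.47 (SE), of which DESeq2 called Reg3g. The genes are close copies, so their reads are uncertain. Itln1, an intestinal lectin, had 1726, 1089, 462 and 697 CPM in the vancomycin libraries, against 447, 345, 290.3 and 792 CPM in the PBS libraries, Saa1, serum amyloid A, gave -0.37 ± 0.36 and Lypd8, which keeps bacteria off the epithelium, gave -0.24 ± 0.25, each with overlap. Colonocyte and goblet cell lists stood at medians of 0.035 and 0.069 with no member without overlap of 31 and 25 tested. Muc2, the main gel-forming mucin, had 13449, 12148, 4356 and 7379 CPM in the vancomycin libraries, against 6046, 2949.8, 3033 and 6272 CPM in the PBS libraries. Tuft cell genes had a median of -1.01 and 3 of 11 members lower without overlap, with a median of -0.48 without PBS library 4 and -0.44 with the Hox position score as a covariate. Among the 3 were Plcg2 and Sh2d6. Plcg2 is also a gene of leukocytes, and Pou2f3, the factor that defines tuft cells, gave -0.54 ± 0.46 with overlap.

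Interferon and cytokine genes gave no common shift of the size seen in lymphoid genes. Of 46 interferon-stimulated genes, 36 were negative with a median of -0.19, and 1, Gbp8, a guanylate-binding GTPase with close relatives, lay lower without overlap, at -2.14 ± 0.71. The sign of the median rested on PBS library 2: without it the median was 0.097, with 19 negative and 27 positive values. Leaving out vancomycin library 3, PBS library 1, PBS library 3 or PBS library 4 gave medians of -0.30, -0.41, -0.12 and -0.43. Irf7, which amplifies the interferon response, had 439, 311, 119.8 and 290.4 CPM in the vancomycin libraries, against 96.6, 283, 134 and 86.98 CPM in the PBS libraries. Vancomycin library 1 and PBS library 2 were the highest of their groups, and the groups overlapped. MHC class I genes had a median of -0.28 and 1 of 16 without overlap. Of 22 cytokines and chemokines, 18 were negative with a median of -0.36, and 5 lay lower without overlap. They were Cxcl13, Ccl20, which epithelium over follicles secretes, Ccl5, Cxcl16 and Tnf. Cxcl16, a chemokine of epithelium and dendritic cells, had 8.64, 8.27, 11.7 and 10.5 CPM in the vancomycin libraries, against 20.96, 26.01, 26.8 and 21.2 CPM in the PBS libraries, a log2 fold change of -1.28 ± 0.38 (SE; edgeR adjusted p = 0.309).

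Lists tied to cell stress and drug injury had medians near 0 or slightly above it. Heat shock genes had a median of 0.037 with 9 of 18 positive, and endoplasmic reticulum stress genes 0.0075 with 14 of 27. Oxidative stress and Nrf2 targets had a median of 0.061 with 15 of 27 positive, and immediate early genes 0.11 with 15 of 25. Without overlap, 2 immediate early genes lay lower and 0 higher, and 1 gene each of the endoplasmic reticulum and oxidative stress lists lay higher. Genes of kidney-type injury and xenobiotic uptake, a list chosen because vancomycin is known to harm the kidney, had 7 of 8 positive values, a median of 0.34 and no member without overlap. Glucocorticoid targets and metallothioneins, which respond to stress hormones, had a median of 0.22 with 1 of 19 higher without overlap.

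Clock and metabolic genes were near 0 or slightly higher. Core clock genes had 11 positive and 11 negative values with a median of -0.035. Nfil3, a clock-driven repressor that also shapes lymphoid cell fate, had 8.40, 13.9, 4.76 and 8.92 CPM in the vancomycin libraries, against 4.75, 3.93, 4.38 and 3.15 CPM in the PBS libraries, a log2 fold change of 1.15 ± 0.28 (SE; edgeR adjusted p = 0.309). Its groups did not overlap, but vancomycin library 3 and PBS library 1 were nearly equal, and DESeq2 called it. Per3, a period gene, had 48.5, 51.2, 43.2 and 39.2 CPM in the vancomycin libraries, against 56.8, 59.2, 53.4 and 60.8 CPM in the PBS libraries, lower without overlap at -0.34 ± 0.24, and Arntl, the core activator, gave -0.24 ± 0.29 with overlap. Fatty acid oxidation had 28 of 31 positive values and a median of 0.24, with 3 members higher without overlap. Lipogenesis had a median of 0.52 and 3 of 19 without overlap. Me1, malic enzyme, which makes NADPH for fat synthesis, had 47.4, 96.6, 66.4 and 81.6 CPM in the vancomycin libraries, against 29.3, 13.2, 10.6 and 24.8 CPM in the PBS libraries, and Acaca and Acacb, the acetyl-CoA carboxylases, gave 0.75 ± 0.27 and 1.07 ± 0.47. Fat cells express these genes too, and the adipose list lay higher in the same libraries; its part in these values was not tested.

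The ZT23 values were then set against the vancomycin effects at the other GF hours. The difference of the ZT23 effect from the mean effect at ZT5, ZT11 and ZT17 was tested in the same fit, and 0 of 16951 genes (0%) passed in edgeR, with 2293 at an unadjusted p under 0.05, while DESeq2 called 19 (0.117%). The smallest p again belonged to Trim30b, with a difference of -4.83 (edgeR adjusted p = 0.141). Its log2 fold changes were 0.63 at ZT5, -1.11 at ZT11, 1.08 at ZT17 and -4.63 at ZT23. Sardh gave a difference of 3.10, Grhpr one of 0.99 and Pstpip1 one of -2.18. The B cell and follicle list had medians of 0.65, -1.49, 0.91 and -4.06 at ZT5, ZT11, ZT17 and ZT23, and MHC class II had 0.85, -0.95, 0.98 and -2.82. Both lists thus had positive medians at ZT5 and ZT17 and negative medians at ZT11 and ZT23. Adipose genes had medians of 0.63, 0.51, -0.72 and 2.66 in the same order of hours.

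Single libraries ranged widely in these lists at every hour. The B cell and follicle mean ran from -1.18 to 5.54 log2 CPM over the 12 vancomycin libraries and from -1.15 to 4.88 over the 12 PBS libraries of the other hours. At ZT23 it ran from -0.81 to 2.48 in vancomycin and from 3.91 to 6.33 in PBS libraries. Of the 12 PBS libraries at other hours, 6 lay within the ZT23 vancomycin range and 3 within the ZT23 PBS range. PBS libraries 2 and 3 of ZT23 lay above every PBS library of the other hours. For adipose genes, 5 of the 12 other PBS libraries lay within the ZT23 vancomycin range and 4 within the ZT23 PBS range. For MHC class II genes, 2 of the 12 other PBS libraries lay within the ZT23 vancomycin range and 4 within the ZT23 PBS range.

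**Figure D5:**
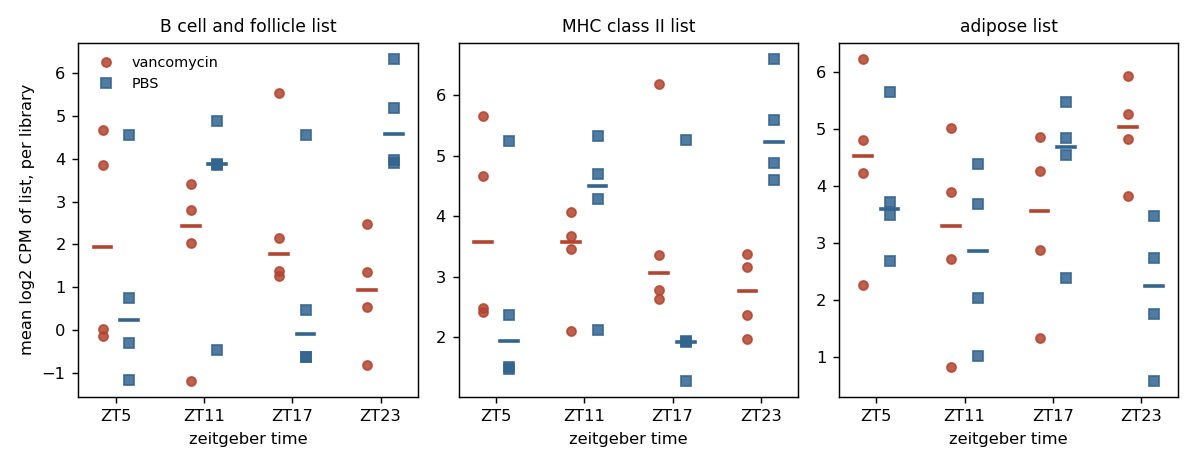
Mean log2 CPM of 3 gene lists (y axis) in each GF library by zeitgeber time (x axis), vancomycin as circles and PBS as squares, with a bar at each group's median. At ZT23 the 4 vancomycin libraries lie below the 4 PBS libraries for the B cell and follicle list (at most 2.48 against at least 3.91) and the MHC class II list, and above them for the adipose list, while the groups overlap at ZT5, ZT11 and ZT17.

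Mice with a normal microbiota (specific pathogen free, SPF) were sampled at ZT23 under the same injections, in a table of their own. The difference of the GF effect from the SPF effect was tested over 16604 genes, and 0 (0%) passed in edgeR, with 2210 at an unadjusted p under 0.05, while DESeq2 called 24 (0.145%). Herpud1, a protein of endoplasmic reticulum quality control, had the smallest p, with a GF effect of -0.54 ± 0.20, an SPF effect of 0.80 and a difference of -1.33 (edgeR adjusted p = 0.0539). Trim5, a relative of capsid-binding restriction factors with close copies in mouse, had a GF effect of -2.12 ± 0.76, an SPF effect of 2.53 and a difference of -4.66 (edgeR adjusted p = 0.0545). Its GF libraries had 2.39, 1.61, 10.6 and 1.40 CPM in the vancomycin libraries, against 1.27, 13.04, 27.1 and 28.3 CPM in the PBS libraries, with overlap. Without GF vancomycin library 3 the fit called 6 genes, among them Herpud1 and Trim5, both at adjusted p = 0.00124. Hbegf, a growth factor of the EGF family, had 52.9, 36.7, 36.1 and 42.8 CPM in the vancomycin libraries, against 22.9, 15.7, 5.52 and 13.7 CPM in the PBS libraries in GF colon and an SPF effect of -1.36, a difference of 2.92. Phospho1, a phosphatase, gave a difference of 2.85 and Nyap1 one of 2.56. The list medians in SPF colon at ZT23 were 0.094 for B cell and follicle, 0.087 for MHC class II, 0.03 for T and NK cell and -1.12 for adipose genes. The medians of the difference, GF minus SPF, were -3.98, -2.86, -2.96 and 4.02, with no member past the edgeR threshold. These medians carry the Hox and Y-linked differences between the GF groups at ZT23, and a part of the microbiota in them was not tested.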

How the data were processed

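RNA of flash-frozen colon was selected for poly(A) and sequenced as single-end reads, per the labels' protocols. Reads were trimmed with Trim Galore 0.6.2 and cutadapt 3.5 and quantified with Salmon on GRCm39, per the submitters' processing notes. Annotation and strand setting: not given in the sources used here. The deposited values are estimated counts, 1 table of GF and 1 of SPF libraries, 35534 genes each. File labels call them normalized, but totals differ between libraries and low values step by about 1 read, so they were read as unscaled, an assumption that the authors' notes do not settle. Estimated counts were rounded, and genes with at least 10 in at least 4 libraries were kept.

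Groups came from sample titles. The edgeR 4.0.16 quasi-likelihood test (TMM scaling, limma 3.58.1, R 4.3.3) was fitted over all 32 GF libraries with 8 group means, two-sided, with Benjamini-Hochberg adjustment over all genes tested. The contrast with SPF used 16 group means over both tables. DESeq2 1.42.0 was the main alternative. Log2 CPM used a prior count of 0.5. With 4 against 4 libraries an exact permutation test cannot give a two-sided p under 0.0286. Counts of replicate pairs differed well beyond sampling noise, with a smallest chi-square per degree of freedom of 24.8. Each library was counted as its own sample, although such spread does not show that each is a separate animal. Scripts were tested on simulated data.

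Gene lists and their members were chosen with earlier results of these data known. Genes named by rule were the 12 of smallest p in each direction with a mean of at least 1 CPM in a group, leaving out predicted genes and receptor segments, the 8 of smallest p for each comparison of effects, and 3 members per list. Since no gene passed, these are given as values, as the rule provides. Other genes were named from the lists after their values were seen. Position, sex, muscle and replicate covariates and the leaving out of each library were tried as alternatives. Some genes of the lists are counted but not reported here by name.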

Additional observations from a re-analysis of the deposited data

Results flagged for a closer look

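Of 264 checks for a library far from the other 3 of its group, 11 stood out. Chance gives about 1 in 20 groups, so this number is no more than chance alone would give. Values are log2 CPM. Pstpip1 was 1.12 in vancomycin library 1, against 2.02 to 2.11 in the other vancomycin libraries, and Cxcr5 was 2.48 in vancomycin library 3, against -0.52 to -0.017. Cidea was -1.82 in vancomycin library 1, against -0.62 to -0.44 in its group, and -0.417 in PBS library 1, against -2.43 to -2.33 in its group. Pparg was 3.75 in vancomycin library 3, against 6.80 to 7.18 in the other vancomycin libraries. Hoxb13 was 7.55 in PBS library 1, against 8.18 to 8.30 in the other PBS libraries. The mean of the Y-linked list was 1.24 in PBS library 4, against 5.8 to 5.89. In PBS library 3 the small intestine and Paneth list was 2.40, against 2.91 to 2.93, and the epithelial antimicrobial list was 5.06, against 5.34 to 5.38. The glucocorticoid and metallothionein list was 5.70 in vancomycin library 1, against 5.93 to 5.98. The cytosolic ribosomal list was 8.25 in vancomycin library 3, against 7.82 to 7.86 in the other vancomycin libraries.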

How the results depend on the processing

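The count of called genes for vancomycin against PBS was 0 in the alternatives run, apart from DESeq2 with 55 and the fits without 1 library, which ran from 0 to 1. Other scaling, other low-count filters, limma-voom, the 8 libraries alone and the position, sex, muscle and B cell covariates each gave 0. The difference from the other hours stood at 19 with DESeq2 and at 0 to 0 without 1 library, and the difference from SPF at 24 with DESeq2 and at 0 to 6 without 1 library. The 6 arose without GF vancomycin library 3, 2 each without GF PBS library 1 or SPF PBS library 1, 1 without SPF PBS library 4 and 3 without SPF vancomycin library 4. The cause was not tested. Leaving out 1 library moved non-overlapping members to 14 to 22 for T and NK cell, 7 to 13 for adipose, 20 to 21 for B cell and follicle and 10 to 13 for macrophage and dendritic genes, and kept 10 to 10 for MHC class II. Over all genes in those fits, the non-overlapping share ran from 5.5% to 11.8% lower and from 2.37% to 6.64% higher, with both highest without vancomycin library 3, so the shares of the full comparison are not their background. At fixed scaling such counts can only stay or rise when a library is removed, so their ranges do not test the full counts. The Hox score difference ran from -3.15 to -1.50. Of the named genes' values over the alternatives, 460 kept direction and side, 18 kept direction and passed the threshold, of which 16 came from DESeq2, and 0 turned round. These genes were chosen for small p in the same libraries, so keeping direction was largely set by that choice. Their sizes varied more: the log2 fold change ran from 0.83 to 2.86 for Tcp11 and from -2.07 to -0.93 for Pstpip1. Same-numbered vancomycin and PBS libraries deviated with correlations of -0.043, -0.068, 0.20 and -0.013. These do not settle whether a number marks a shared litter or day, which the labels do not say. The replicate block called 0 genes. Depth limits genes of few reads, such as Clec2g.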

Other observations

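Some lists showed one direction without a called gene. All 34 cytosolic ribosomal protein genes had negative values after vancomycin, with a median log2 fold change of -0.39 and 2 without overlap, and all 13 genes of the mitochondrial genome had positive values, with a median of 0.36 and 2 without overlap. With the Hox position score as a covariate the ribosomal median was -0.056. Osr2, a transcription factor chosen here after its values were seen, had 43.4, 156, 1.30 and 1.01 CPM in the vancomycin libraries, against 0.475, 0.741, 0.568 and 0.450 CPM in the PBS libraries, and Nts, the neurotensin precursor, had 17.04, 32.2, 0.307 and 1.40 CPM in the vancomycin libraries, against 0.633, 0.222, 0.162 and 0.0749 CPM in the PBS libraries. Both stood high in vancomycin libraries 1 and 2, those with the lowest Hox scores.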
